A study of Mus musculus with 9 samples.

Results

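The transcripts described here are 1417 of the 59709 probes outside controls on a mouse expression array. They were chosen by name: the probe is no control, its name does not mark it as one of the design's numbered or long intergenic noncoding RNA probes, and its transcript name is neither an ultraconserved element nor a RefSeq mRNA or noncoding RNA. What remains is a set of sequenced cDNA clones and expressed sequence tags (ESTs), each with 1 spot per array. There were 161 AK names, the accession series of RIKEN full-length mouse cDNA clones, 1010 EST names such as AV, BB and BY, 19 BC names from the Mammalian Gene Collection, 76 Ensembl transcripts and 151 other names. The label of sequenced clones was not exact for 127 members, which carried the name of a transcript model (76 Ensembl and 51 UCSC names). The other 100 of the 151 were GenBank accessions under prefixes such as CR (44), AU (20) and C (10). Some of those prefixes may hold ESTs too, so the line between ESTs and other names follows the list of prefixes used and is not exact.

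A full-length cDNA clone copies a whole processed RNA, so its sequence usually shows the exons and the end of a transcript. An EST is a single-pass read from an end of a clone, often short and often without a known gene, and EST collections hold rare, unspliced and intergenic transcripts besides fragments of known mRNAs. Arrays that look for long noncoding RNA carry such names because many transcripts were known only from a clone. None of the 1417 names matched a gene in the name tables used here (0 matches), so each member is given under its clone or transcript name, and no function is assigned to it. Those tables list gene symbols, synonyms, gene identifiers and RefSeq transcripts, and RefSeq names were left out by the rule. The lack of matches therefore does not show that a member belongs to no known gene. Probe sequences and genome positions of these members were not used here.

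Total RNA of the abdominal aorta of male mice was depleted of ribosomal RNA, amplified with random primers, labelled with Cy3 and measured on 9 single-colour arrays. The 3 groups of 3 arrays were controls (titled wild type), mice treated with CaPO4, the calcium phosphate model of abdominal aortic aneurysm, and aneurysm mice given naringenin, a citrus flavonoid. Strain, age, dose and time are not given in the labels. The design text speaks of 5 mixed aortas per condition without saying if each array is a pool, an individual mouse or a technical repeat, so p-values may measure only technical spread. In whole tissue, fewer cells of a type and less RNA per cell cannot be told apart.

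Levels are log2 intensities from which the 75th percentile of their array was subtracted, so 0 is that percentile, and levels of different probes are not compared. The 75th percentile itself was 119 to 120 intensity units on the controls, 43.7 to 85 on the CaPO4 arrays and 88.7 to 239 on the naringenin arrays. Cell type markers were looked for only among the 123 RefSeq accessions on the array. None of the markers of smooth muscle, endothelium, fibroblasts, macrophages, T and B cells or fat was found there (0 of 32 in all). The labelled tissue could therefore not be checked. Of 8 pancreas acinar markers only Amy2a5 was named, and of 5 lymph node stroma markers Ccl21b and Ccl21c. Amy2a5, a pancreatic amylase gene, stood at 0.10, 0.54 and 0.70 in control 1 to 3, at 2.03, 11.05 and 2.04 in CaPO4 1 to 3, and at 11, 11.12 and 9.93 in naringenin 1 to 3. Ccl21b, a chemokine gene of lymphoid stroma, stood at 4.93 to 5.05 on the controls, at 7.58, 9.65 and 7.70 on CaPO4 1 to 3, and at 8.51 to 9.59 with naringenin. The part of such other cells in the changes below was not tested.

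The clones and ESTs placed 2 arrays apart from their groups. Over the 379 members well above background and with a value on all 9 arrays, CaPO4 1 and 3 had 0.528% of members over 2-fold apart (r = 0.996 across members, which are not independent replicates). CaPO4 2 had 58.3% of members over 2-fold from CaPO4 1 and 57% from CaPO4 3, but 7.65% from naringenin 1 and 8.18% from naringenin 2. Naringenin 1 and 2 had 0% of members over 2-fold apart (r = 0.998), the closest pair on the 9 arrays, and naringenin 3 lay over 2-fold from them in 31.7 and 31.4%. The controls lay 1.85 to 3.69% apart. The median SD between the 3 arrays of a group was 0.12 log2 among controls, 0.74 among CaPO4 arrays and 0.42 among naringenin arrays. What the CaPO4 means and folds below stand for is therefore in doubt, and the label of CaPO4 2 may be too. Why this array lay near naringenin 1 and 2 was not tested. It did not do so for every member: AV310809 stood at 5.48 on CaPO4 2 and at 1.94 and 1.93 on naringenin 1 and 2. That member was named because its CaPO4 and naringenin arrays did not overlap, so it is no check of the label. The labels were kept as deposited, and CaPO4 2 and naringenin 3 mean the arrays labelled so. The counts of calls, and the members for which these arrays stood apart most, are also given without them. The controls shared scan 1, naringenin 3 stood alone in scan 2, and the other 5 arrays shared scan 3, which means that no comparison with control can be made within a scan, and scan and treatment cannot be told apart there.

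**Figure D1:**
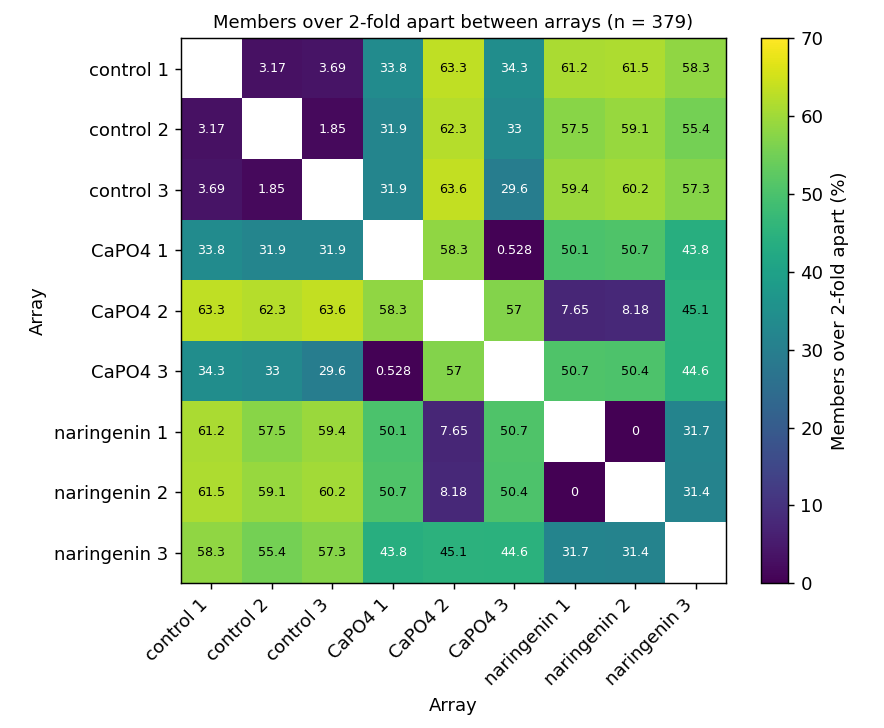
Share of members over 2-fold apart (%, colour scale and printed value) for each pair of the 9 arrays (both axes), over 379 members well above background and with a value on every array. The dark cells away from the control block are CaPO4 1 with CaPO4 3 (0.528%), naringenin 1 with naringenin 2 (0%), and CaPO4 2 with naringenin 1 and 2 (7.65 and 8.18%).

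The AK clones were seen above background more often than the ESTs on each of the 9 arrays. Of the AK clones, 60.2, 54.0 and 54.7% were well above background in control 1 to 3, 46.0, 68.9 and 46.0% in CaPO4 1 to 3, and 68.3, 60.2 and 87.6% in naringenin 1 to 3. ESTs were so in 43.0, 38.7 and 38.5% on the controls, in 27.0, 41.4 and 24.7% on the CaPO4 arrays, and in 41.5, 34.4 and 73.1% on the naringenin arrays. The share of ESTs lay below that of all probes on every array, while AK clones lay above it; over all probes the share ranged from 37.1% on CaPO4 3 to 84.1% on naringenin 3. Naringenin 3, with the highest 75th percentile intensity, was the highest array for both classes, and CaPO4 1 and 3, with the lowest intensities, were the lowest. Between these, CaPO4 2 (intensity 85) and naringenin 1 (88.7) had larger AK shares than every control (119 to 120). Their EST shares lay within the range of the controls. The part of intensity in these shares was not tested.

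**Figure D2:**
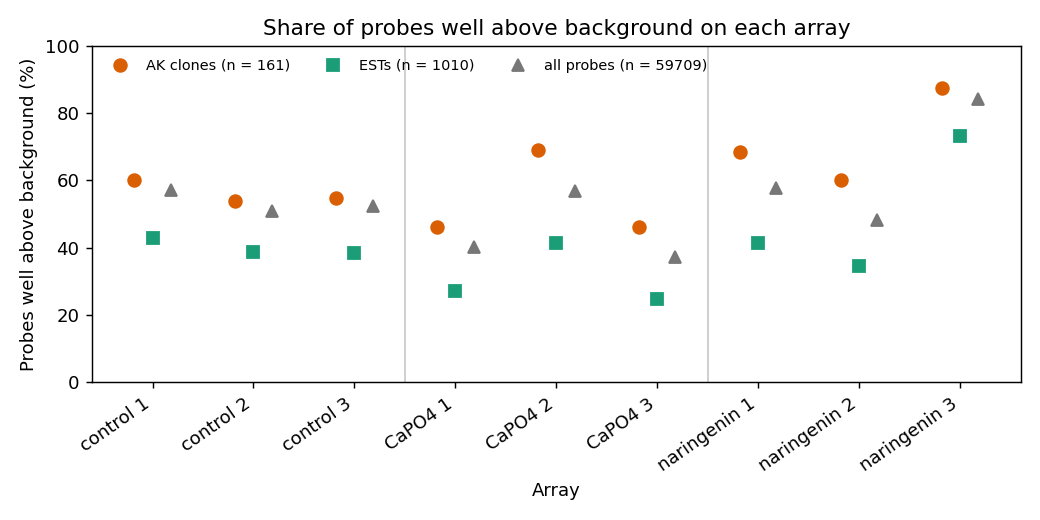
Share of probes well above background (%, vertical axis) on each of the 9 arrays (horizontal axis) for the AK clones, the ESTs and all probes outside controls; each point is 1 array. AK clones lie above all probes and ESTs below them on every array, and naringenin 3 is the highest array for each (87.6% of AK clones and 73.1% of ESTs).

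The shares varied more between the arrays of a treated group than between the controls. The AK share was 56.3 ± 3.42% on controls, 53.6 ± 13.3% with CaPO4 and 72.0 ± 14.0% with naringenin (SD, n = 3 arrays). The EST share was 40.1 ± 2.52, 31.0 ± 9.05 and 49.6 ± 20.6% in the same order. With 3 arrays against 3, an exact two-sided permutation test cannot go below p = 0.1. For all members, CaPO4 minus control was -7.22 percentage points (exact p = 0.4), naringenin minus CaPO4 was 18.7 (exact p = 0.2) and naringenin minus control was 11.4 (exact p = 0.4), and across the 9 tests of this kind the adjusted p was 0.514 or more. The test therefore cannot show a difference here. Without CaPO4 2 the first difference was -12.9 points, and without naringenin 3 the last was 0.941.

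Many ESTs gave a signal on no array or on a single one. Of the 1010 ESTs, 228 were well above background on none of the 9 arrays, 225 on 1 array only (198 of them on naringenin 3), and 223 (22.1%) on all 9. Of the 161 AK clones, 16 were so on no array, 24 on 1 array (22 of them naringenin 3) and 68 (42.2%) on all 9. Among all probes 32.3% were detected on all 9. The Ensembl transcripts had 44 of 76 (57.9%) on all 9 arrays and 2 on none, and the BC clones 9 of 19 and 2. In all, 394 members were well above background on all 9 arrays and 274 on none.

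A total of 762 of the 1417 members (53.8%) passed the filter of at least 3 arrays well above background, against 62.8% of all probes, and 655 did not and have no test. Among those that passed were 112 AK clones (69.6%), 480 ESTs (47.5%), 13 BC clones, 67 Ensembl transcripts and 90 other names. The filter let 10 members in through exactly the 3 arrays of 1 group (8 through control, 2 through naringenin). Members not well above background on any control passed only through treated arrays. A rise called against control is no independent support for them. Likewise, members well above background on fewer than 3 treated arrays needed the controls to pass, and a fall called against control is no independent support for them. A further 5 that passed had no value in 1 group after outlier spots were removed, which left 757 for the comparisons with control.

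Every class but the ESTs stood higher on the naringenin arrays than on the controls, relative to all probes of the same array. Counted as the class median minus the median of all probes on that array, a difference that does not depend on the factor an array is scaled by, AK clones stood at 0.14, 0.34 and 0.44 log2 for control 1 to 3, at 0.36, 1.45 and 0.42 for CaPO4 1 to 3 and at 1.26, 1.21 and 0.97 for naringenin 1 to 3. The 3 naringenin arrays and CaPO4 2 lay above the other arrays, and CaPO4 1 and 3 lay within the range of the controls. Ensembl transcripts stood at 1.51, 1.80 and 1.97, then 2.11, 2.98 and 2.27, then 2.99, 3.13 and 2.23. BC clones stood at 1.03, 1.30 and 1.44, then 1.19, 3.04 and 1.46, then 2.43, 2.55 and 2.60. Other names stood at -0.35, -0.33 and -0.46, then -0.43, 0.03 and -0.44, then 0.26, 0.35 and 0.44. ESTs stood at -0.92, -1.05 and -1.04 on the controls, -1.2, -1.12 and -1.25 with CaPO4 and -1.11, -1.21 and -0.69 with naringenin. Naringenin 3 was the highest EST array, and the remaining 8 lay within -1.25 to -0.92. On those 8 arrays the EST median lay below the lowest level well above background (EST medians of -3.55 to -2.81 against floors of -2.74 to -1.22), so it says nothing of EST changes there. The same holds for the AK medians of CaPO4 1 and 3, both -1.88 against floors of -1.47 and -1.22. Medians of other names lay below the floor too on control 2 and 3 and on CaPO4 1 and 3. The subtracted median of all probes also lay below the floor on CaPO4 1 (-2.24), CaPO4 3 (-2.30) and naringenin 2 (-2.12 against -2.09). These medians are described without a test.

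**Figure D3:**
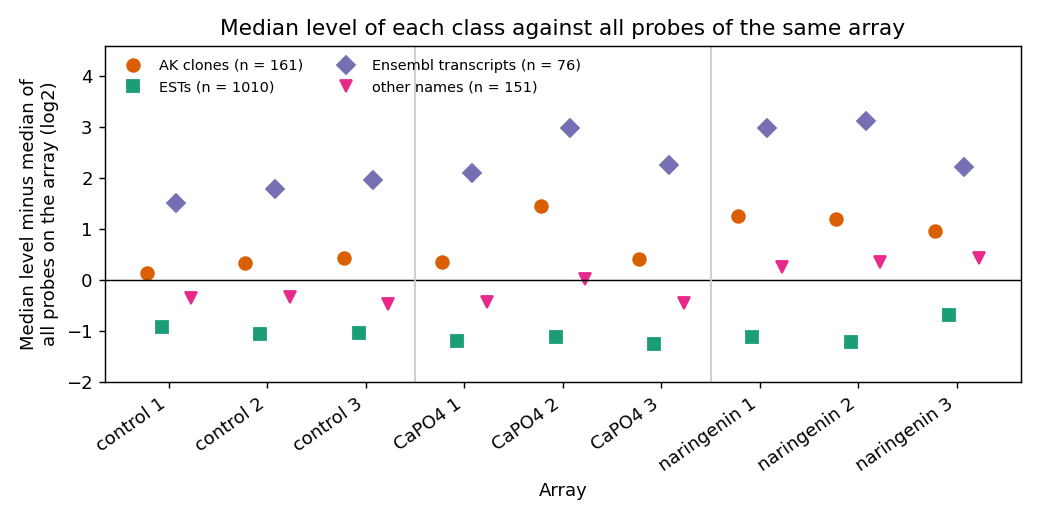
Median level of each class minus the median of all probes on the same array (log2, vertical axis) on each of the 9 arrays (horizontal axis); each point is 1 array and 0 is the median of all probes. AK clones rise from 0.14 to 0.44 on the controls to 0.97 to 1.26 on the naringenin arrays, CaPO4 2 (1.45) lies with the naringenin arrays, and ESTs lie between -1.25 and -0.69, from medians below the detection floor on every array but naringenin 3.

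CaPO4 against control asks which clone transcripts change in the aneurysm model. The limma fit over all 9 arrays called 189 of 757 members (25%) at an adjusted p under 0.05 (Benjamini-Hochberg over all 37307 probes tested), 90 higher and 99 lower, against 21.4% of all probes (10.1% higher and 11.3% lower). For 401 members (53%) the 3 CaPO4 arrays and the 3 controls did not overlap, against 48% of all probes. The median change was 0.11 log2 over the members and -0.04 over all probes. AK clones had 17 higher and 8 lower of 112, ESTs 47 higher and 74 lower of 478, Ensembl transcripts 13 and 6 of 65, other names 12 and 10 of 89 and BC clones 1 and 1 of 13.

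The balance of directions depended on how the arrays were scaled. With arrays scaled by their median the count was also 189 but 65.1% were higher (AK 22 higher and 6 lower, EST 67 and 49), and with the 75th percentile over probes detected on all arrays 39.4% of 188 were higher (AK 16 and 14, EST 33 and 77), against 47.6% in the fit as designed. Without scaling, 4 of 223 were higher and 219 lower. Over all probes these settings called 22, 22.4 and 31.8%, in that order. The count fell to 59 without control 1, 59 without control 2 and 73 without control 3, against 7.8, 7.45 and 9.44% of all probes. It was 253 without CaPO4 2 and 441 without CaPO4 2 and naringenin 3, against 31.5 and 53% of all probes. The shares of all probes thus moved with the counts of members.

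AK007918 showed the steepest rise among the AK clones. It stood at 1.0, 0.34 and 0.22 in control 1 to 3, at 8.17, 11.32 and 8.14 in CaPO4 1 to 3 and at 11.15, 11.11 and 9.92 in naringenin 1 to 3. All 6 treated arrays lay above all controls without overlap, and CaPO4 2 lay with naringenin 1 and 2. The change with CaPO4 was 8.69 ± 0.78 log2 (SE, n = 3 arrays per group, limma adjusted p = 0.00113), 412-fold, and 7.63 without CaPO4 2. The order of the arrays was close to that of Amy2a5, except that CaPO4 1 and 3 stood at 2.03 and 2.04 for Amy2a5; the part of pancreatic tissue was not tested.

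The BC clone BC156060 went from not well above background on any control to a high level. It was measured at -4.62, -4.47 and -4.56 on the controls, where 0 of 3 arrays were well above background, at 0.80, 6.06 and 0.79 on CaPO4 1 to 3, and at 5.96, 5.87 and 5.35 with naringenin. With the lower group below background and the higher group well above it, the fold is a bound. It is computed against the lowest level well above background on each array and written as at least. BC156060 passed the filter only through treated arrays, so its calls against control are no independent support. BC156060 rose at least 27.4-fold with CaPO4 (log2 change as fitted 7.10 ± 1.14, limma adjusted p = 0.0047), and its fitted change was 5.35 without CaPO4 2.

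CK378914, an EST, rose alike on the 3 CaPO4 arrays. Its control levels were -4.62, -4.29 and -4.56 with 0 of 3 arrays well above background, its CaPO4 levels 0.75, 0.06 and 0.82 and its naringenin levels 1.37, 1.24 and 0.89. Here CaPO4 2 was the lowest of its group and the 3 groups did not overlap. CK378914 passed the filter only through treated arrays, so its calls against control are no independent support. It rose at least 6.83-fold with CaPO4 (5.04 ± 0.33 log2, limma adjusted p = 0.000541). AK029623 also rose by a like amount on each CaPO4 array, from 1.36, 1.43 and 1.05 on the controls to 3.71, 3.48 and 3.72, and stood at 3.66, 3.69 and 3.00 with naringenin. Its change was 2.35 ± 0.32 log2, 5.11-fold (limma adjusted p = 0.00289), and the CaPO4 and naringenin arrays overlapped.

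The rises of AK132675 and AK132892 were smaller without CaPO4 2. AK132675 stood at -0.63, -0.88 and -0.89 on the controls, 0.56, 4.25 and 0.84 with CaPO4 and 3.78, 3.81 and 2.97 with naringenin. Its rise with CaPO4 was 2.69 ± 0.81 log2, 6.44-fold (limma adjusted p = 0.0418), but 1.5 without CaPO4 2, and the call was lost without any 1 control or any 1 naringenin array (adjusted p 0.0602 to 0.113). AK132892 rose 4.99-fold (2.32 ± 0.52, adjusted p = 0.0149), or 1.72 log2 without CaPO4 2, and lost its call without control 1 or 2. AK139572, well above background on 1 of 3 controls, rose at least 2.53-fold (2.89 ± 0.62, adjusted p = 0.0124); its change was 2.62 without CaPO4 2, and its call was lost without control 2 or 3.

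Among further ESTs, BB649909 was highest with CaPO4. It stood at -2.52, -1.90 and -1.98 on the controls (2 of 3 well above background), 1.62, -0.20 and 1.39 with CaPO4 and -1.47, -1.5 and -2.29 with naringenin. CaPO4 2 was the lowest of its group, and naringenin and control arrays overlapped. The rise with CaPO4 was at least 7.96-fold (3.07 ± 0.49, limma adjusted p = 0.0047) and was 3.63 log2 without CaPO4 2. BY223493 (0 of 3 controls and 2 of 3 CaPO4 arrays well above background) had a fold of 3.07, with a fitted change of 3.11 log2 and of 2.42 without CaPO4 2. BY726615 (0 of 3 controls, 3 of 3 CaPO4) rose at least 2.44-fold. BG245265 (0 of 3 controls, 1 of 3 CaPO4) had a fold of 1.85 and lost its call without control 1 or 2. The folds of BY223493 and BG245265 are no bounds, because some of their CaPO4 arrays were not well above background.

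Transcript models rose as well. uc008sno.1 went from 1.32, 1.23 and 1.30 on the controls to 3.73, 6.10 and 3.74 with CaPO4 and 5.23, 5.17 and 3.36 with naringenin, with no control overlapping a treated array. Its change with CaPO4 was 3.24 ± 0.68 log2, 9.46-fold (limma adjusted p = 0.0117), and 2.45 without CaPO4 2. ENSMUST00000126395 had 0 of 3 controls and 1 of 3 CaPO4 arrays well above background (CaPO4 levels -2.72, -1.2 and -2.03). It rose by 2.57 ± 0.41 log2 as fitted (limma adjusted p = 0.00465). Its fold of 1.18 is no bound, because CaPO4 was itself mostly below background.

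The largest EST fall with CaPO4 was that of DV074327. The controls read 6.25, 6.49 and 6.27, CaPO4 1 to 3 read 3.97, 0.38 and 3.99, and naringenin 1 to 3 read 0.52, 0.81 and 2.19. The controls lay above all other arrays, and CaPO4 2 again lay with the naringenin arrays. It fell by 3.56 ± 0.87 log2, 11.8-fold (limma adjusted p = 0.0198), and fell by 2.36 without CaPO4 2; the call was lost without any 1 control (adjusted p 0.0571 to 0.0673).

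Of the transcript models, uc008ogi.1 and ENSMUST00000171886 had the largest falls with CaPO4. uc008ogi.1 stood at 5.80, 5.52 and 5.28 on the controls, 2.95, 1.97 and 2.57 with CaPO4 and 2.39, 2.43 and 2.42 with naringenin. The controls were more than 2 log2 units above every treated array, and the 2 treated groups overlapped. It fell by 3.04 ± 0.34 log2 with CaPO4, 8.21-fold (limma adjusted p = 0.00186). ENSMUST00000171886 went from 2.90, 2.82 and 2.64 on the controls to -0.22, -1.07 and -0.13 with CaPO4, a 9.58-fold fall (-3.26 ± 0.35 log2, adjusted p = 0.00186), and stood at -1.42, -0.80 and -1 with naringenin.

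Among AK clones the lowest treated levels were not well above background. AK045672 was seen on the 3 controls (-1.03, -1.19 and -1.37) and on 0 of 3 CaPO4 arrays (-3.79, -5.03 and -3.55) and 0 of 3 naringenin arrays (-3.69, -4.34 and -5.46). It passed the filter only through the controls, where it is high, so its calls are no independent support. It fell at least 1.53-fold with CaPO4 (-2.93 ± 0.51 log2 as fitted, limma adjusted p = 0.00607); the bound is small because CaPO4 1 and 3 had a high detection floor of -1.47 and -1.22. AK042687 fell at least 3.15-fold (-1.72 ± 0.30, adjusted p = 0.00595; 2 of 3 CaPO4 arrays well above background) with CaPO4 levels of -1.40, -1.44 and -1.41, so CaPO4 2 did not stand apart for it. AK039249 and AK014021 fell at least 2.72-fold and at least 1.45-fold. AK014021 was well above background on 3 controls, 0 CaPO4 arrays and 1 naringenin array. It needed the controls, where it is high, to pass the filter, so its calls are no independent support.

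Detection on all 3 controls and on no CaPO4 array was about as frequent among members as among all probes. There were 52 members (3.67%) well above background on all controls and no CaPO4 array, 45 of them ESTs, against 3.58% of all probes. The reverse held for 4 members (0.282%; 0.471% of all probes): CK378914, BY726615, AI642604 and BC156060. Of these, AI642604 was not called (-3.74, -3.01 and -2.42 on the controls, -0.40, -0.97 and -0.61 with CaPO4, limma adjusted p = 0.143), and its naringenin arrays ran from -4.93 to 0.51. The CaPO4 1 and 3 arrays had the lowest signal of the 9, and its part in the larger of these counts was not tested.

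**Figure D4:**
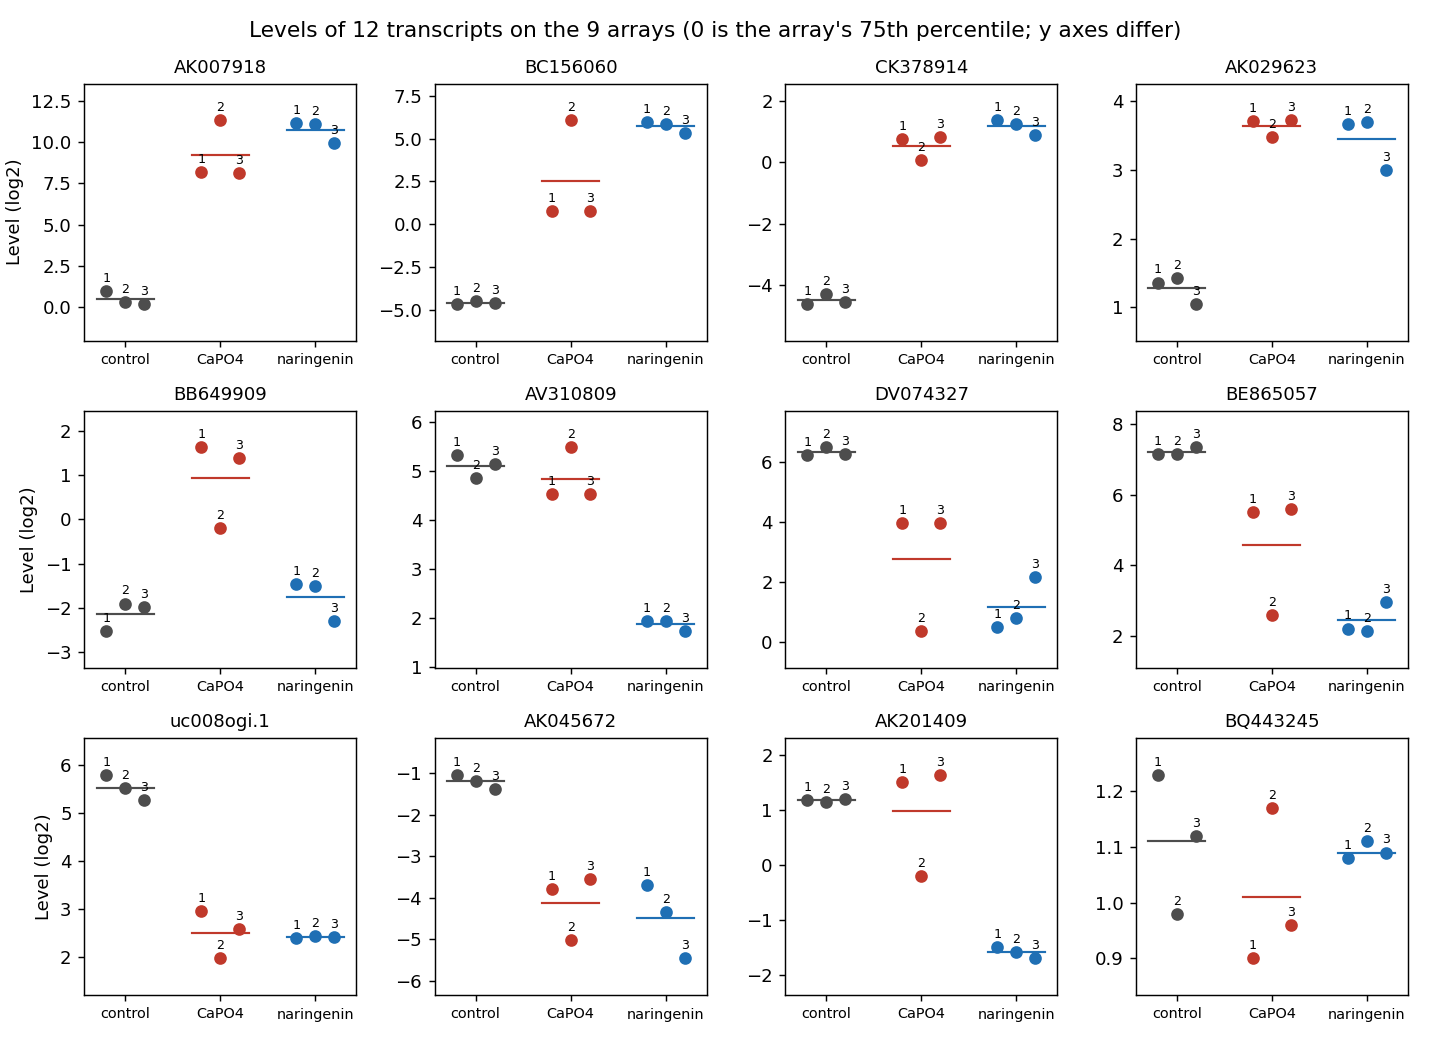
Levels (log2 intensity minus the array's 75th percentile, vertical axes, which differ between panels) of 12 members in the control, CaPO4 and naringenin groups (horizontal axes). Each point is 1 array with its number and the line is the group mean (n = 3); CaPO4 2 lies with the naringenin arrays for AK007918 (11.32), BC156060 (6.06), DV074327 (0.38) and BE865057 (2.60) but not for AV310809 (5.48).

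Naringenin against CaPO4 asks which clone transcripts differ in treated aneurysm. The fit called 6 of 762 members (0.787%), 1 higher and 5 lower, against 2.18% of all 37498 probes tested, and 236 members had an unadjusted p under 0.05, against 26.9% of all probes. Groups did not overlap for 183 members (24%), against 24.2% of all probes, and the median change was 0.25 log2 over members and 0.12 over all probes. Called were 2 of 112 AK clones, both lower, and 4 of 480 ESTs, 3 lower and 1 higher. No BC clone, Ensembl transcript or other name was called by limma (0 each, with 3, 20 and 39 at an unadjusted p under 0.05; smallest adjusted p 0.107, 0.0683 and 0.0719).

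This comparison turned on CaPO4 2. Without that array 383 members were called (250 higher and 133 lower), against 45.6% of all probes. Without CaPO4 2 and naringenin 3 there were 486 (301 higher and 185 lower), against 58.1% of all probes. Leaving out any 1 of the other 8 arrays gave 1 or 2 calls, against 0.0987 to 0.675% of all probes. Scan 3 holds the 3 CaPO4 arrays and naringenin 1 and 2. In a fit of these arrays alone limma called 0 members (85 at an unadjusted p under 0.05, smallest adjusted p 0.362). That fit has fewer arrays to estimate spread, so its count cannot be set against that of the full fit. With scan as a block limma called 2. This gave the same result as leaving out naringenin 3, which is alone in its scan, so it is no separate check of scan. The share of higher calls was 6.67% of 15 with median scaling, 66.7% of 3 with the 75th percentile over probes detected on all arrays, 27.8% of 18 after quantile normalization, and 1 of 1 without scaling, against 16.7% of the 6.

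AV310809 was the only one of the 6 to keep its call without each of the 9 arrays in turn. This EST stood at 5.32, 4.86 and 5.15 on the controls, 4.52, 5.48 and 4.52 with CaPO4 and 1.94, 1.93 and 1.73 with naringenin. The 3 naringenin arrays lay together below every other array, and the controls and CaPO4 arrays overlapped. It fell by 2.97 ± 0.35 log2, 7.85-fold (limma adjusted p = 0.00777), with -3.13 to -2.65 when 1 array was left out and a highest adjusted p of 0.0451 without naringenin 2. Without scaling the change was -1.79 and not called (adjusted p = 0.0623), and within scan 3 it was -2.91 (adjusted p = 0.374).

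The AK clones AK201409 and AK135967 fell in the same comparison. AK201409 stood at 1.18, 1.15 and 1.2 on the controls, 1.51, -0.20 and 1.64 with CaPO4 and -1.48, -1.58 and -1.69 with naringenin. CaPO4 2 lay below the controls but above every naringenin array. It fell by 2.57 ± 0.46 log2, 5.93-fold (limma adjusted p = 0.0271). AK135967 stood at 0.80, 0.90 and 0.89, then 0.45, -0.13 and 0.78, then -1.52, -2.08 and -1.43 (2 of 3 naringenin arrays well above background), and fell at least 4.12-fold (-2.04 ± 0.34, adjusted p = 0.0208). Both calls were kept only without CaPO4 2 (-3.16 and -2.29) and lost without each of the other 8 arrays, with adjusted p of 0.0589 to 0.119 for AK201409 and 0.0517 to 0.103 for AK135967.

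The remaining calls were ESTs. BB649909, whose levels are given above, fell 6.46-fold from CaPO4 to naringenin (-2.69 ± 0.49 log2, limma adjusted p = 0.0291), to a range that overlapped the controls. It was called only without CaPO4 2 when arrays were left out (0.0604 to 0.132 otherwise). This fall and its rise against control use the same 3 CaPO4 arrays, so they are not independent. BF471577 stood at -1.69, -1.76 and -1.68 with CaPO4 and -4.88, -4.34 and -3.07 with naringenin. In each of these groups 1 of 3 arrays was well above background. It fell by 2.39 ± 0.44 log2 as fitted (limma adjusted p = 0.0296). Its fold of 1.86 is no bound, because CaPO4 was itself mostly below background. The call was lost without 7 of the 9 arrays (adjusted p 0.062 to 0.121) and kept without CaPO4 2 or naringenin 3. AA821979 was the single rise and passed the filter only through the 3 naringenin arrays, where it is high, so its call is no independent support. It went from -3.79, -4.54 and -3.55 with CaPO4 (0 of 3 well above background) to -1.44, -1.31 and -0.23 with naringenin, at least 1.76-fold higher (2.97 ± 0.47, adjusted p = 0.0185). Its call was lost without CaPO4 1 or 3 or any 1 naringenin array (0.0549 to 0.0756).

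The members with the largest changes against control were mostly not called between naringenin and CaPO4. BC156060 was 3.18 ± 1.14 log2 higher with naringenin than with CaPO4 (limma adjusted p = 0.13). AK148210 had the smallest p among AK clones that were higher: it stood at -1.31, 1.42 and -0.96 with CaPO4 and 2.74, 2.66 and 1.77 with naringenin, 2.67 ± 0.65 apart (adjusted p = 0.0624). On all 3 naringenin arrays and no CaPO4 array were 5 members (0.353%; 0.762% of all probes), all ESTs, AA821979 among them, and 0 members showed the reverse.

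Naringenin against control gave the most calls, with the controls in a scan of their own. With scan as a random block 313 were called, against 34.8% of all probes. No control shares a scan with a treated array, so that fit cannot separate scan from treatment. The fit called 400 of 757 members (52.8%), 229 higher and 171 lower, against 45.9% of all probes (22.7% higher and 23.2% lower). At an unadjusted p under 0.05 there were 459, against 54.5% of all probes. Groups did not overlap for 531 (70.1%), against 67.2%. The median change was 0.30 log2 over the members and 0.03 over all probes. This comparison uses the same controls as the one with CaPO4, so the calls of both are not independent.

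Classes differed in their counts here. Of 112 AK clones 49 were higher (43.8%) and 19 lower (17.0%), with a median change of 1.09 log2. Of 65 Ensembl transcripts 28 were higher and 8 lower (median 1.29), of 89 other names 36 and 17, and of 13 BC clones 4 and 0. Of 478 ESTs 112 were higher (23.4%) and 127 lower (26.6%), with a median change of 0. The AK clones had more higher than lower calls and the ESTs more lower than higher under each of the 4 other scalings too, with AK 32 to 51 higher and 10 to 24 lower. Without CaPO4 2, which shares in the estimate of spread, 495 members were called, against 61.2% of all probes. Without CaPO4 2 and naringenin 3 there were 558, against 70% of all probes.

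**Figure D5:**
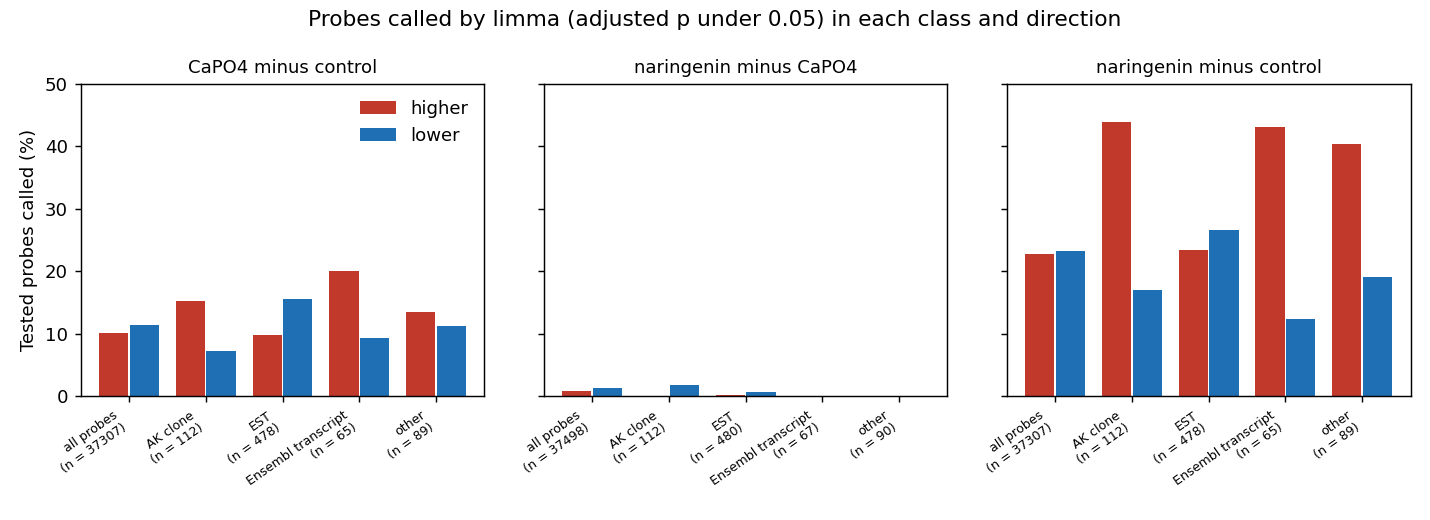
Share of tested probes called by limma at an adjusted p under 0.05 (%, vertical axis), higher in red and lower in blue, for all probes and 4 classes (horizontal axis, with the number tested) in the 3 comparisons. With naringenin against control 43.8% of AK clones were higher and 17.0% lower, while ESTs had 23.4 and 26.6% and all probes 22.7 and 23.2%.

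The leading rises recur from the levels already given. AK007918 was 10.21 ± 0.78 log2 above control with naringenin, 1180-fold (limma adjusted p = 0.000216), BC156060 at least 248-fold (10.28 ± 1.14, adjusted p = 0.000537), CK378914 at least 10.5-fold (5.66 ± 0.33, adjusted p = 0.000146) and AK132675 20-fold (4.32 ± 0.81, adjusted p = 0.00281). AK132892 stood at -2.21, -1.76 and -1.71 on the controls and 2.16, 2.20 and 1.14 with naringenin, 13.2-fold higher. CN724408, an EST, stood at -1.62, -1.87 and -2.09 on the controls, -0.03, 1.66 and -0.42 with CaPO4 and 2.07, 2.17 and 1.11 with naringenin, 12.5-fold above control (3.65 ± 0.53, adjusted p = 0.00112). In both, CaPO4 2 lay among the naringenin arrays and CaPO4 1 and 3 lay between them and the controls.

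Some members were seen with naringenin and on no control. There were 69 (4.87%; 4.41% of all probes): 38 ESTs, 12 Ensembl transcripts, 9 other names, 8 AK clones and 2 BC clones. They were chosen for this detection and their naringenin arrays alone met the filter, so their calls are no independent support. AK035192 stood at -4.62, -2.53 and -4.56 on the controls, -3.79, 0.67 and -3.55 with CaPO4 and 0.14, 0.11 and -0.01 with naringenin, at least 4.95-fold above control (3.98 ± 1.05, limma adjusted p = 0.0121). Of the CaPO4 arrays only CaPO4 2 was well above background for it, and the same held for AK077064 (at least 2.83-fold), AK155601 (at least 6.35-fold) and ENSMUST00000119623 (at least 4.25-fold).

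Falls against control were led by ESTs. BE865057 stood at 7.16, 7.16 and 7.34 on the controls, 5.52, 2.60 and 5.59 with CaPO4 and 2.21, 2.14 and 2.97 with naringenin. The controls lay above CaPO4 1 and 3, and those above CaPO4 2 and the naringenin arrays. It fell by 4.79 ± 0.70 log2 with naringenin, 27.6-fold (limma adjusted p = 0.00111). DV074327 fell 35.9-fold (-5.17 ± 0.87, adjusted p = 0.0018), BY307613 at least 22.8-fold, BI500027 at least 12.4-fold and CO802283 at least 6.49-fold, with 2, 1 and 0 of 3 naringenin arrays well above background for the last 3. CO802283 needed the controls, where it is high, to pass the filter, so its call is no independent support. Without naringenin 3 the fitted changes were -6.38 log2 for BI500027 and -4.30 for CO802283, against -5.11 and -4.97 with it.

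Under the other names, AU046282 and uc008ogc.1 fell, with CaPO4 2 near the naringenin arrays in both. AU046282 stood at 5.32, 5.36 and 5.31 on the controls, 4.30, 1.46 and 4.13 with CaPO4 and 1.57, 1.43 and 1.78 with naringenin, a 13.4-fold fall against control (-3.74 ± 0.64, limma adjusted p = 0.00195). With CaPO4 it fell by 2.03 ± 0.64 log2, 4.09-fold (adjusted p = 0.0479), and fell by 1.12 without CaPO4 2. That call was lost without any 1 control or any 1 naringenin array (adjusted p 0.0684 to 0.123). uc008ogc.1 stood at 5.77, 5.49 and 5.70, then 4.46, 2.16 and 4.36, then 2.46, 2.44 and 2.47, a 9.17-fold fall. ENSMUST00000171886 fell 14.5-fold and uc008ogi.1 8.71-fold.

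The 5 AK clones with the largest falls had fitted changes of -3.30 to -2.24 log2. AK201409 fell 6.78-fold (-2.76 ± 0.46, limma adjusted p = 0.00176), AK135967 at least 5.82-fold and AK042687 5.16-fold. AK139568 stood at 1.38, 1.45 and 1.34 on the controls, -0.08, -0.09 and 0.06 with CaPO4 and -0.40, -0.35 and -1.79 with naringenin, a 4.71-fold fall against control (-2.24 ± 0.40, adjusted p = 0.00228; -1.77 without naringenin 3). Its CaPO4 arrays lay close together, CaPO4 2 included. AK045672 was among 10 members (0.706%; 0.476% of all probes) seen on all controls and no naringenin array, 9 of them ESTs, and it fell at least 3.58-fold.

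Some members hardly moved over the 9 arrays. The EST BQ443245 had the smallest range of all members well above background on all 9, 0.34 log2: 1.23, 0.98 and 1.12 on the controls, 0.90, 1.17 and 0.96 with CaPO4 and 1.08, 1.11 and 1.09 with naringenin. It was chosen for this small range, so no array, CaPO4 2 included, could stand far apart for it. BB429143 and BB287582 had ranges of 0.50 and 0.53, ENSMUST00000099215 of 0.54, AF019385 of 0.64, and the AK clones AK018648 and AK136056 of 0.80 and 0.81. The steadiest BC clone, BC025117, had a range of 1.66, from 2.37 on CaPO4 1 to 4.03 on CaPO4 2.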

How the data were processed

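Spot intensity was extracted by the authors in Agilent Feature Extraction 11.0.1.1, per the submitters' processing notes: the deposited scanner files hold background-subtracted intensity of each spot in arbitrary units, unscaled between arrays, and per the file headers the design is annotated to mm9. The authors' joint table lay within 0.0999% of the scanner values.

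Control and outlier spots were removed (at most 11 member spots on an array), spots of a probe averaged, and log2 intensity minus the 75th percentile of all spots of the array taken from the authors' values. Outlier spots of members numbered 8 to 11 on the controls and 0 or 1 on the other arrays. No member spot was saturated (0 of them). Probes well above background on at least 3 of 9 arrays (37498 of 59709) were fitted in 1 limma model of the 3 groups, with two-sided moderated tests and Benjamini-Hochberg adjustment over all probes tested. In a fold written as at least, each array of the lower group that was not well above background was set to the lowest level well above background on it where that was higher. The higher group was taken as measured. Such a fold is a bound only where the higher group was well above background on all of its arrays. The script was tested on simulated data. The background correction by normexp (offset 50) used median signals in place of the mean signals named in the design.

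Named were, per class and comparison, the 5 largest rises and falls among called members whose groups did not overlap (the 3 smallest p where none was called), up to 5 members detected on all arrays of a group and none of another, and the 3 steadiest. Members, lists and this rule were chosen with earlier results of these data known. Group came from the labels; the same numbers in different groups were not taken to pair arrays. Alternatives changed scaling, background correction, filter, arrays, scan, block and the groups in the fit. The number of arrays limits the precision. R 4.3.3, limma 3.58.1, data.table in version 1.17.8, jsonlite 2.0.0, Python 3.11.15, pandas 2.3.3 and matplotlib 3.10.9 were used.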

Additional observations from a re-analysis of the deposited data

How the results depend on the processing

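The named members gave 1841 values under the alternatives: 1626 kept direction and side of the threshold, 215 were no longer called, and 0 reversed. They were named because their groups did not overlap, so leaving out arrays could not reverse a direction. The values no longer called were 119 of 812 with CaPO4 against control and 28 of 901 with naringenin against control. Between naringenin and CaPO4 they were 68 of 128. For the count of members called with CaPO4 against control (189), testing only probes detected on all arrays gave 84, leaving out CaPO4 2 and naringenin 3 together gave 441, and leaving out 1 array gave 59 to 253. For naringenin against CaPO4 (6), scaling by the median gave 15, by the 75th percentile over probes detected on all arrays 3, no scaling 1, quantile normalization 18, normexp 1, only probes detected on all arrays 2, CaPO4 2 and naringenin 3 left out 486, scan as a block 2, within the shared scan 0 (85 at an unadjusted p under 0.05) and only the 2 groups in the fit 0 by limma (153 at an unadjusted p under 0.05). Leaving out 1 array gave 1 to 383, and scan as a block gave the same result as leaving out naringenin 3. For naringenin against control (400), no scaling gave 237, only probes detected on all arrays 197, and leaving out 1 array 297 to 495. Scan as a random block gave 313, in a fit that cannot separate scan from treatment here. The share of all probes called moved as well. Leaving out 1 array gave 7.45 to 31.5%, 0.0987 to 45.6% and 32.6 to 61.2% of all probes in the 3 comparisons. Testing only probes detected on all arrays tests fewer members (389 or 394). The cause of the other shifts was not tested. No scaling moved the median of all probes by -1.15, 1.30 and 0.10 log2 in the 3 comparisons, as printed in the order above.

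With the replicate number as a block the counts were 179, 5 and 398. Same-numbered CaPO4 and naringenin arrays had correlations of deviations of -0.41, 0.43 and 0.45, and differently numbered ones of -0.46 to 0.45, so the numbers were not taken as pairs. Leaving out 1 array, differences in the share of members well above background ranged from -12.9 to -3.75 points for CaPO4 against control, 8.16 to 25.7 for naringenin against CaPO4 and 0.941 to 18.4 for naringenin against control. Among named members, 22 of 42 calls with CaPO4, 1 of 6 between naringenin and CaPO4 and 40 of 44 with naringenin against control were kept without each array in turn. Signal over background limits the 655 members that did not pass the filter.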

Other observations

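Among the UCSC transcript models, names that begin with uc009v moved together. These were chosen after their values were seen, so no test is given. Of 11 such members, all of which passed the filter, 6 were called higher with CaPO4 and 9 with naringenin against control, beside 10.1 and 22.7% of all probes, and 0 were called lower. Their median change was 1.94 log2 with CaPO4, 1.41 from CaPO4 to naringenin and 3.43 with naringenin against control. uc009vfl.1 stood at -1.36, -1.48 and -1.41 on the controls, -0.11, 1.83 and -0.15 with CaPO4 and 2.31, 2.44 and 1.55 with naringenin, and uc009vhj.1 at -1.35, -1.59 and -1.62, then -0.18, 1.83 and 0.15, then 2.40, 2.33 and 1.32. In both, CaPO4 2 was the highest of its group. The exceptions were uc009vfa.1, at 10.94 to 11.24 on the controls and 0.74 log2 higher with CaPO4 (limma adjusted p = 0.192), and uc009vgv.1, at 7.91 to 8.10 on the controls. Members with neighbouring names may lie in the same locus or share sequence, which was not examined, so they are not independent of each other. Of 4 uc008o names, 3 were called lower with CaPO4 and 3 with naringenin against control, beside 11.3 and 23.2% of all probes.

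Among ESTs, prefixes differed in how often a member was well above background on all 9 arrays. Of 51 AV names 24 were (47.1%), of 72 BB names 27 (37.5%), of 144 BY names 27 (18.8%), of 82 AI names 10 (12.2%) and of 21 CN names 2 (9.52%). The AV share was close to that of the AK clones (42.2%). These shares are a description, without a test.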
